A study of Mus musculus with 12 samples.

Results

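The effect of the p300 knockout after bleomycin was followed in 3 KOBLM and 3 BLM libraries, 6 of the 12 libraries of the series, taken by their titles and by the bleomycin treatment given in the labels. Each library held RNA from the lung cells of 1 mouse that had been stained for CD74 and EpCAM and sorted as alveolar type II (ATII) cells, and was sequenced from the 3' ends of its transcripts. BLM mice were controls, labelled as negative control, that received 4 mg/kg bleomycin into the trachea. KOBLM mice carried a floxed exon 9 of Ep300, the gene of p300, and Spc-CreERT2, a tamoxifen-inducible Cre driven by the surfactant protein C promoter, and received the same bleomycin. The other groups, Con (control) and KO (p300 knockout), received PBS in place of bleomycin; they entered the estimate of the spread and a comparison of the genotypes without bleomycin. The mice were 8 weeks old when 10 mg/kg tamoxifen was injected, ahead of the bleomycin. The study's supplement describes Spc-p300 f/f mice given either vehicle or tamoxifen, while the labels do not say what the control mice of these libraries received. The study names both Spc-p300 f/f mice and C57BL/6 mice as controls, and the labels do not say which served here. The Spc driver is active in ATII cells, so other cell types that pass the sort keep an intact gene. The time between bleomycin and harvest of these libraries is not given in the sources used here.

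p300 is a histone acetyltransferase and transcriptional coactivator, which is recruited to promoters and enhancers by transcription factors and acetylates histones there. Its close relative CBP, the product of Crebbp, shares most of its domains and many of its partners. ATII cells are the cuboidal epithelial cells of the alveolus that make surfactant and renew the alveolar lining, and they can display antigen on MHC class II molecules. Bleomycin breaks DNA and injures the alveolar epithelium; inflammation, chemokine release and the deposition of extracellular matrix follow, and the model is widely used for lung fibrosis.

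The 12 libraries held 7005005 to 11153154 counts, and the 6 compared here covered that whole range. Of the 6, replicate 3 of BLM (BLM 3) and replicate 2 of KOBLM (KOBLM 2) stood apart. BLM 3 had counts in 6847 genes, against 13838 and 12869 in BLM 1 and BLM 2, although it was the deepest library, and its Spearman correlations across genes with the other BLM libraries were 0.593 and 0.598, against 0.909 between BLM 1 and BLM 2. BLM 3 also held 161.7 CPM (counts scaled to a common library size with TMM factors) of Xist, against at most 12.5 CPM in the other libraries, and 9.2 CPM of 4 Y-linked genes, against 130.4 to 279.9 CPM. Its 32 pluripotency and germline genes summed to 4103 CPM, against 734 to 1686 CPM elsewhere. KOBLM 2 had counts in 9018 genes, against 12873 and 12932 in KOBLM 1 and KOBLM 3. No 2 libraries held identical values. Folds are therefore given with all libraries and without BLM 3, and for a named gene called in both fits it is said where the call was lost without KOBLM 2.

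The labelled cell type was checked against its markers. The 16 ATII markers summed to 543, 746 and 624 CPM in BLM 1 to 3 and to 869, 886 and 723 CPM in KOBLM 1 to 3, with KOBLM 3 below BLM 2 and KOBLM 1 and KOBLM 2 above all BLM libraries. Sftpc, the surfactant protein C gene whose promoter drives the Cre, held 25.5, 20.1 and 58.3 CPM in the BLM libraries and 110, 47.4 and 0.605 CPM in the KOBLM libraries, and Nkx2-1, the lung epithelial transcription factor, held at most 2.32 CPM. The 26 macrophage markers summed to 15692, 18622 and 975 CPM in BLM and to 12050, 26578 and 29456 CPM in KOBLM, many times the ATII sum in each library except BLM 3. The 18 lymphocyte markers found in the files summed to 61.4, 123 and 0 CPM in BLM and to 435, 944 and 352 CPM in KOBLM, where all 3 libraries lay above all BLM libraries. Cd2 alone made up 322, 851 and 214 CPM of the KOBLM sums and 21.5, 49.9 and 0 CPM of the BLM sums. The 13 neutrophil markers in the files summed to 6420, 2326 and 116 CPM in BLM and to 2400, 1709 and 1574 CPM in KOBLM, and the 14 endothelial markers to 1329, 582 and 274 CPM and to 2980, 543 and 559 CPM. In BLM 3, 10 of the 26 macrophage markers, 7 of the 14 endothelial markers and all 18 lymphocyte markers had no count. Ptprc, the pan-leukocyte surface protein CD45, held 207, 275 and 27.8 CPM in BLM and 548, 784 and 507 CPM in KOBLM; it is named after its values were seen. The part of these other cells in the differences between the genotypes was not tested, and in bulk libraries fewer cells of a type and less RNA per cell cannot be told apart.

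**Figure D1:**
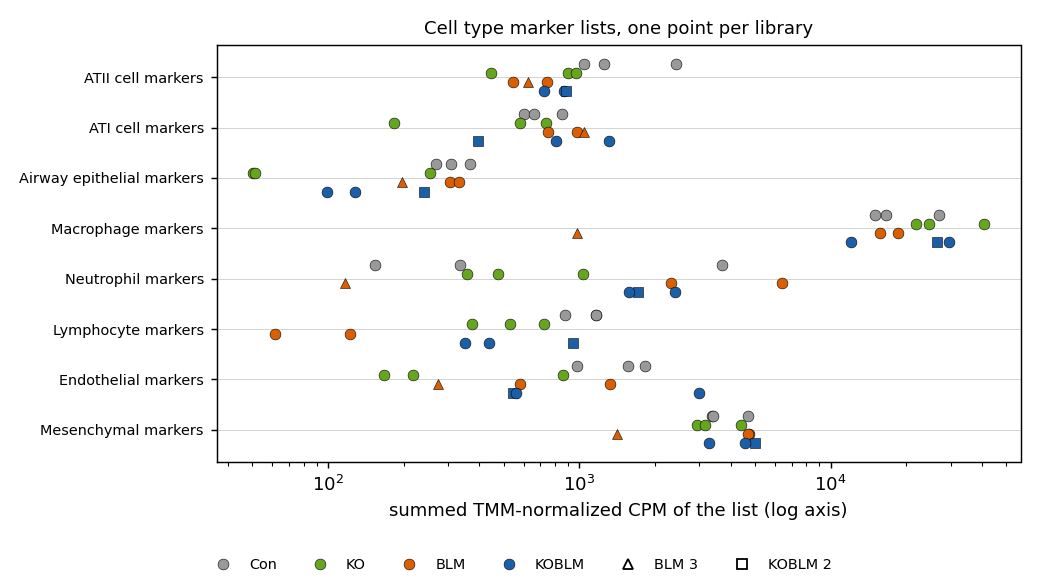
Summed CPM (log axis) of each list of cell type markers, with 1 point for each library (Con grey, KO green, BLM orange, KOBLM blue; the triangle is BLM 3 and the square KOBLM 2). The lymphocyte sum of BLM 3 was 0 and lies off the log axis; the KOBLM libraries sit between 352 and 944 CPM in that list, above BLM 1 and BLM 2.

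The targeted gene was examined first. Ep300 spans chr15:81585351-81652077 (GRCm38, + strand), and its exon 9, the floxed exon of the labels, lies at chr15:81620000-81620117. It is the exon removed by the recombination, and is printed 5' to 3' in capitals between the last 20 bases of exon 8 and the first 20 bases of exon 10, taken from the GENCODE annotation of GRCm38.
Ep300 exon 9: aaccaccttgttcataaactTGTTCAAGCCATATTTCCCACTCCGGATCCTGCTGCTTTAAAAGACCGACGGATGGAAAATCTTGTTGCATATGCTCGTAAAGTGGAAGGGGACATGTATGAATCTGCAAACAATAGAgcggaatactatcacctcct
The exon holds 118 bases, which is no multiple of 3, and ends 6453 bases before the end of the transcript of 31 exons. Reads from the 3' end lie far from it, so that the Ep300 count does not check the deletion. The study itself checked the deletion by qRT-PCR in isolated ATII cells and by staining p300 with cell markers in the lungs. Ep300 held 121, 100 and 33.7 CPM in BLM and 177, 53.1 and 105 CPM in KOBLM, and the groups overlapped. The difference, as log2 fold change of KOBLM over BLM with its standard error, was 0.39 ± 0.69 with all libraries (edgeR, unadjusted p = 0.58) and 0.01 ± 0.58 without BLM 3 (unadjusted p = 0.986).

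A gene was called changed when it differed by over 1.5-fold with an unadjusted p under 0.05 in edgeR's quasi-likelihood test, the thresholds of the study. With all libraries, 413 of 13054 tested genes (3.16%) were changed between KOBLM and BLM, 181 higher (1.39%) and 232 lower (1.78%) in KOBLM. Without BLM 3, 471 of 14084 (3.34%) were changed, 248 higher (1.76%) and 223 lower (1.58%). These shares of all genes stand as the comparison for each gene list below. A share of 0.05 of the tests would be 652.7 and 704.2 genes. Both counts were smaller than this number, which an exact test gives when nothing differs. In data simulated with a dispersion of 2, 12795 genes were tested and 467 of those left unchanged were called, a smaller share than 0.05. No gene passed a Benjamini-Hochberg adjusted p of 0.05 in edgeR. The smallest adjusted p was 1 with all libraries, and so every single-gene call below is unadjusted; it was 0.257 without BLM 3. Adjusted values under 0.05 were given to 78 genes by DESeq2, 5 by limma-voom with sample weights and 2 by a linear model of each gene alone, and without BLM 3 to 55, 6 and 98 genes. Without KOBLM 2 the calls fell to 236 of 14144 (1.67%; 0.834% in each direction), and without both libraries 361 of 13978 were called (2.58%; 1.42% higher and 1.16% lower).

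Of 13053 genes tested in both fits, 218 (1.67%) were changed in the same direction with and without BLM 3, 129 higher (0.988%) and 89 lower (0.682%), and none in opposite directions. They made 52.8% of the calls with all libraries and 46.3% of those without BLM 3. Of the 52 higher genes that were no longer called without BLM 3, it was the lowest of the 6 libraries in 50. Of the 143 such lower genes it was the highest in 143. Losing a call without BLM 3 favours genes in which it is the extreme library, so that these numbers are a description only. Of the genes changed in both fits, 78 of the 129 higher and 47 of the 89 lower were called again when KOBLM 2 was left out together with BLM 3. The 3 libraries of each group did not overlap in 1401 of 13054 genes (10.7%), KOBLM being higher in 804 (6.16%) and lower in 597 (4.57%). An exact permutation test of 3 against 3 libraries cannot give a two-sided p below 0.1, which is the value of each gene below whose groups did not overlap.

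**Figure D2:**
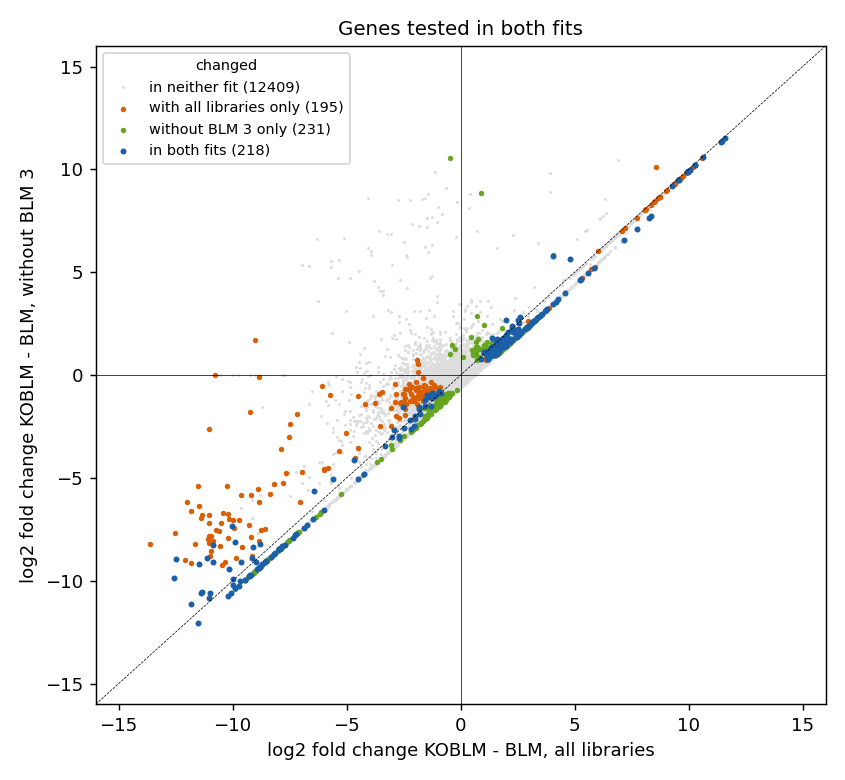
Log2 fold change of KOBLM over BLM with all libraries (x axis) and without BLM 3 (y axis), with 1 point for each of 13053 genes. Colours mark the 218 genes changed in both fits, the 195 changed only with BLM 3 and the 231 changed only without it.

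The 12 higher genes with the smallest p in both fits, no overlap of the libraries and a mean of at least 10 CPM were Hebp1, Kcnn3, Cybb, Sort1, Gstm1, Clec7a, Colgalt1, Hba-a1, Sgk1, Itgax, Magt1 and Pald1. Hebp1, a haem-binding protein, headed them. It held 28.5, 31.5 and 37.2 CPM in BLM and 146, 236 and 184 CPM in KOBLM, so that BLM 3 lay with the other BLM libraries. The log2 fold change was 2.53 ± 0.52 (unadjusted p = 0.000239) and 2.65 ± 0.45 without BLM 3 (unadjusted p = 3.64e-05). Kcnn3, a calcium-activated potassium channel, held 2.32, 4.39 and 0 CPM in BLM and 39.6, 151 and 69.8 CPM in KOBLM. It was higher by 5.29 ± 1.28 on the log2 scale (unadjusted p = 0.00095) and by 4.68 ± 0.79 without BLM 3 (unadjusted p = 3.29e-05). Sort1, the sorting receptor sortilin, held 51.1, 110 and 69 CPM in BLM and 192, 406 and 330 CPM in KOBLM, a log2 fold change of 2.0 ± 0.48 (1.94 ± 0.45 without BLM 3). Gstm1, a glutathione S-transferase that conjugates electrophiles, held 57, 104 and 107 CPM in BLM and 185, 572 and 510 CPM in KOBLM, a log2 fold change of 2.23 ± 0.54 (2.39 ± 0.53 without BLM 3). In neither was BLM 3 the lowest library.

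Cybb, Clec7a and Itgax are best known from myeloid cells. Cybb encodes the membrane subunit of the phagocyte NADPH oxidase, and held 460, 525 and 72.5 CPM in BLM and 2019, 1364 and 2392 CPM in KOBLM. Its log2 fold change was 2.45 ± 0.59 (unadjusted p = 0.000969) and 1.97 ± 0.37 without BLM 3 (unadjusted p = 9.15e-05), BLM 3 being the lowest library. Clec7a, the beta-glucan receptor Dectin-1, held 255, 428 and 40.4 CPM in BLM and 1372, 1053 and 2031 CPM in KOBLM, a log2 fold change of 2.62 ± 0.65 (2.12 ± 0.42 without BLM 3). Itgax, the integrin CD11c of alveolar macrophages and dendritic cells, held 86.8, 178 and 112 CPM in BLM and 299, 721 and 346 CPM in KOBLM, a log2 fold change of 1.85 ± 0.52 (1.78 ± 0.51 without BLM 3). Ptprc moved the same way, by 1.85 ± 0.65 with all libraries and 1.34 ± 0.39 without BLM 3. The summed macrophage markers, by contrast, overlapped between the groups, KOBLM 1 lying below BLM 1 and BLM 2.

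Hba-a1, an alpha-globin gene of red blood cells, held 48.6, 7.76 and 0 CPM in BLM and 575, 7088 and 500 CPM in KOBLM, so that KOBLM 2 lay far above the rest. The log2 fold change was 7.18 ± 1.88 (6.59 ± 1.55 without BLM 3), and it fell to 4.84 ± 1.64 without KOBLM 2 and to 4.25 ± 1.13 without both libraries. Hba-a1 has a near-identical neighbour, Hba-a2, so that reads may be split between them and the values are uncertain. The remaining 4 genes had no library so far from the rest. Sgk1, a hormone-induced kinase, held 161 to 343 CPM in BLM and 666 to 1038 CPM in KOBLM, a log2 fold change of 1.61 ± 0.45 (1.36 ± 0.39 without BLM 3). Colgalt1, which glycosylates collagen chains in the endoplasmic reticulum, held 56.6 to 165 CPM in BLM and 388 to 478 CPM in KOBLM, a log2 fold change of 1.86 ± 0.48 (1.53 ± 0.37 without BLM 3). Magt1, a magnesium transporter and subunit of the oligosaccharyltransferase, held 73 to 75.7 CPM in the 3 BLM libraries and 194 to 288 CPM in KOBLM, a log2 fold change of 1.69 ± 0.48 (1.68 ± 0.44 without BLM 3). Pald1 held 21.8 to 53.9 CPM in BLM and 117 to 356 CPM in KOBLM, a log2 fold change of 2.51 ± 0.69 (2.25 ± 0.65 without BLM 3).

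The 12 lower genes by the same rule were Mt2, Rps27a, Amica1, Hint1, Fbln2, Serpine2, Thbs1, Tuba1c, Snhg3, Ctnnd2, Yrdc and Psmd3. Mt2, a metallothionein that binds zinc and other metals, lies at chr8:94172664-94173568 and held 1992, 2470 and 616 CPM in BLM and 208, 480 and 106 CPM in KOBLM. The log2 fold change was -2.68 ± 0.68 (unadjusted p = 0.00151) and -3.08 ± 0.58 without BLM 3 (unadjusted p = 0.000109). The Con libraries, without bleomycin, held 172 to 206 CPM of Mt2, near the KOBLM values. Its neighbour Mt1, named after its values were seen, held 1482, 2034 and 1052 CPM in BLM and 566, 1593 and 434 CPM in KOBLM. The groups overlapped in Mt1, and its log2 fold change was -0.82 ± 0.53 (unadjusted p = 0.14) and -1.03 ± 0.50 without BLM 3 (unadjusted p = 0.0584). Amica1, an adhesion molecule of the junctional family found on leukocytes, held 238, 289 and 135 CPM in BLM and 31.4, 51.9 and 19.4 CPM in KOBLM, a log2 fold change of -2.70 ± 0.84 (-2.95 ± 0.77 without BLM 3). It was lower, whereas the leukocyte genes Cybb, Clec7a and Itgax were higher.

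Fbln2, Serpine2 and Thbs1 act in or on the extracellular matrix. Fbln2, the matrix protein fibulin 2, held 49.1, 15.7 and 80.5 CPM in BLM and had no count in any KOBLM library. Against a floor of 3 counts in each library it was at least 136-fold lower (edgeR, unadjusted p = 0.00535), and at least 91.2-fold lower without BLM 3 (unadjusted p = 0.0107). Serpine2, the protease inhibitor nexin 1, held 72, 49.9 and 143 CPM in BLM and 3.35, 0 and 2.18 CPM in KOBLM, a log2 fold change of -5.59 ± 1.67 (-5.04 ± 1.77 without BLM 3). Thbs1, thrombospondin 1, an adhesive glycoprotein that can activate latent TGF-beta, held 446, 203 and 271 CPM in BLM and 99.6, 107 and 60 CPM in KOBLM. The log2 fold change was -1.80 ± 0.66 (unadjusted p = 0.0159) and -1.87 ± 0.60 without BLM 3 (unadjusted p = 0.00753). Con held 16 to 37.7 CPM of Thbs1, so that the KOBLM libraries lay between Con and BLM.

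The remaining lower genes belong to protein synthesis and turnover, the cytoskeleton and other roles. Rps27a, a fusion of ubiquitin with a protein of the small ribosomal subunit, held 532, 552 and 947 CPM in BLM and 213, 252 and 230 CPM in KOBLM, a log2 fold change of -1.56 ± 0.47 (-1.23 ± 0.38 without BLM 3). Hint1, a nucleotide hydrolase, held 612, 704 and 931 CPM in BLM and 199, 314 and 432 CPM in KOBLM, a log2 fold change of -1.26 ± 0.43 (-1.07 ± 0.36 without BLM 3). Psmd3, a proteasome subunit, held 160 to 226 CPM in BLM and 40.2 to 106 CPM in KOBLM (-1.56 ± 0.59, and -1.52 ± 0.52 without BLM 3), and was not called without KOBLM 2. Tuba1c, an alpha-tubulin, held 550 to 788 CPM in BLM and 252 to 347 CPM in KOBLM (-1.25 ± 0.46, and -1.13 ± 0.40 without BLM 3). Snhg3, a host gene of small nucleolar RNA, held 89.6 to 178 CPM in BLM and 9.32 to 23.7 CPM in KOBLM (-2.93 ± 1.02, and -2.66 ± 0.99 without BLM 3). Yrdc, a tRNA-modifying enzyme, held 44 to 62.6 CPM in BLM and 0.472 to 10.3 CPM in KOBLM (-3.34 ± 1.25, and -3.44 ± 1.19 without BLM 3). Ctnnd2, the adhesion protein delta-catenin 2, held 24.1, 28.8 and 33.2 CPM in BLM and no count in KOBLM, at least 80.9-fold lower (74.6-fold without BLM 3).

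**Figure D3:**
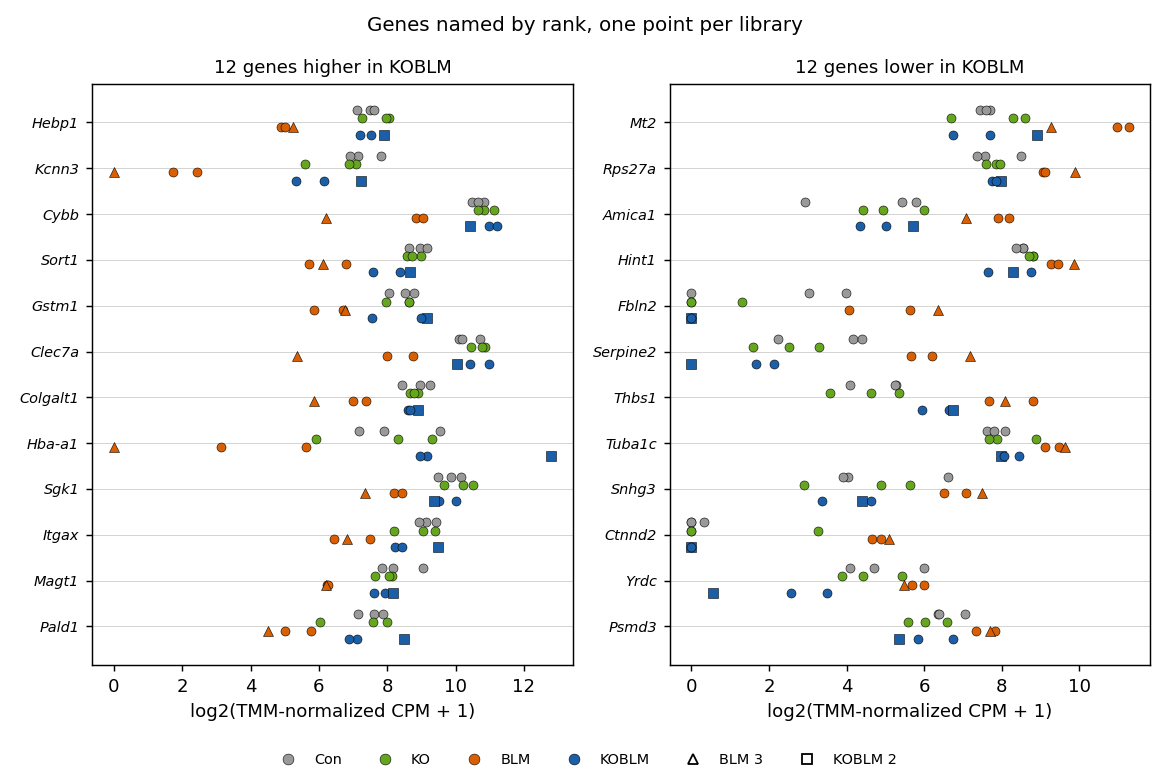
Log2(CPM + 1) of the 12 higher and the 12 lower genes, with 1 point for each library (Con grey, KO green, BLM orange, KOBLM blue; the triangle is BLM 3 and the square KOBLM 2). In each gene the 3 KOBLM points lie on one side of the 3 BLM points.

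Matrix glycoproteins and proteoglycans were called lower more often than higher with all libraries and without BLM 3, but not when KOBLM 2 alone was left out. Of 69 tested matrix glycoproteins and proteoglycans, 1 was higher (1.45%) and 4 were lower (5.80%) in KOBLM with all libraries, against 1.39% and 1.78% of all genes, and of 76 tested without BLM 3 none was higher and 10 were lower (13.2%, against 1.58%). Without KOBLM 2, 2 were higher and 2 were lower, and without both libraries none was higher and 6 were lower. The list's median log2 fold change was -0.65 with all libraries and -0.88 without BLM 3, beside 0.10 and -0.06 for all tested genes. With genes that had a group at the counting floor set to their bound, the medians were -0.65 and -0.80. Fbln2, Thbs1 and Wisp1 were lower in both fits. Wisp1, a secreted CCN protein of the Wnt pathway, held 18, 16.2 and 6.95 CPM in BLM and no count in KOBLM, at least 38.7-fold lower (unadjusted p = 0.0311; at least 48.3-fold and unadjusted p = 0.0335 without BLM 3), and it was not called without KOBLM 2. Lamb1, the laminin beta chain, was lower only with BLM 3, in which it held 208 CPM against 47.6 and 11 CPM in the other BLM libraries. Lama1, the sole higher member, had no count in BLM and 8.37, 0 and 2.78 CPM in KOBLM, and was not called without BLM 3.

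Another 7 matrix glycoproteins passed without BLM 3: Eln, Mgp, Bgn, Vcan, Ecm1, Sparcl1 and Wisp2. The first 6 did not pass with all libraries, and Wisp2 was not tested there, its counts lying below the filter. In each of them BLM 3 held less than BLM 1 and BLM 2. Eln, elastin, held 380, 265 and 11.3 CPM in BLM and 97.8, 21.3 and 32.3 CPM in KOBLM, a log2 fold change of -2.12 ± 1.16 with all libraries (unadjusted p = 0.0897) and of -2.68 ± 0.91 without BLM 3 (unadjusted p = 0.0102). Mgp, matrix Gla protein, held 1581, 1365 and 328 CPM in BLM and 671, 353 and 186 CPM in KOBLM (-1.44 ± 0.81, and -1.87 ± 0.74 without BLM 3). Vcan, the proteoglycan versican, held 253, 146 and 78.8 CPM in BLM and 13.3, 1.6 and 42.4 CPM in KOBLM (-3.06 ± 1.62, and -3.38 ± 1.57 without BLM 3). Of these 3, Vcan alone had groups that did not overlap. Fn1, fibronectin, held 1346, 1053 and 426 CPM in BLM and 497, 773 and 1416 CPM in KOBLM and was not changed in either fit (-0.08 ± 0.58, and -0.42 ± 0.51 without BLM 3).

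Of the 22 collagen chains tested, 17 had a log2 fold change below 0, and 1, Col3a1, was changed (4.55%); of 27 tested without BLM 3, 22 were below 0 and Col3a1 was again the changed one (3.70%). The median was -1.81 with all libraries and -1.44 without BLM 3 (-1.85 and -1.44 with bounds for genes at the counting floor). Col3a1, a fibrillar collagen chain of soft tissue, held 456, 357 and 103 CPM in BLM and 86.2, 69.2 and 45.1 CPM in KOBLM, so that the groups did not overlap. It changed on the log2 scale by -2.19 ± 0.98 (unadjusted p = 0.0411) and -2.61 ± 0.91 without BLM 3 (unadjusted p = 0.0119), but it was not called without KOBLM 2. Col1a1 held 379, 221 and 431 CPM in BLM and 51.8, 239 and 12.2 CPM in KOBLM, with a log2 fold change of -1.78 ± 1.27 (unadjusted p = 0.184) and of -1.57 ± 1.31 without BLM 3. Col1a2 held 888, 633 and 364 CPM in BLM and 351, 269 and 105 CPM in KOBLM (-1.38 ± 0.86, and -1.66 ± 0.86 without BLM 3). These collagens are also markers of mesenchymal cells, whose 18 listed genes summed to 4718, 4687 and 1409 CPM in BLM and to 3276, 4984 and 4553 CPM in KOBLM, and overlapped between the groups; among the 14 of them tested, Col3a1 was the only one changed in either fit.

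Of 55 tested enzymes and inhibitors of matrix remodelling, none was higher and 3 were lower (5.45%): Serpine2, Serpina3n and Adamts2. Of 58 tested without BLM 3, 2 were higher (3.45%) and 5 were lower (8.62%), and the medians were -0.28 and -0.52. Without KOBLM 2 none was higher and 1 was lower, and without both libraries 4 were higher and 3 were lower. Serpina3n, an acute-phase protease inhibitor, held 216, 183 and 11.9 CPM in BLM and 17, 4.53 and 0.121 CPM in KOBLM, a log2 fold change of -4.24 ± 1.87 (-4.79 ± 1.69 without BLM 3), and it was not called without KOBLM 2. Adamts2, which trims procollagen ends, held 40.4, 17.4 and 71.3 CPM in BLM and 3.63, 0 and 1.57 CPM in KOBLM, and passed only with BLM 3. The collagen prolyl hydroxylases P4ha2 and P4ha3 had no count in KOBLM and passed without BLM 3; with all libraries P4ha2 did not pass and P4ha3 was not tested. P4ha2 held 12.8, 6.15 and 0 CPM in BLM and was at least 26.7-fold lower without BLM 3, and P4ha3 held 17.1, 6.44 and 0 CPM and was at least 33.2-fold lower. Plod3 and Tgm2 were higher without BLM 3. Plod3, a lysyl hydroxylase, held 69.4, 74.8 and 85.2 CPM in BLM and 118, 169 and 172 CPM in KOBLM (1.08 ± 0.43), and Tgm2, a cross-linking transglutaminase, held 195, 257 and 0 CPM in BLM and 378, 403 and 542 CPM in KOBLM (0.96 ± 0.43).

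Of 34 tested genes of the TGF-beta pathway none was higher and 3 were lower (8.82%), and of 35 tested without BLM 3, 1 was lower (2.86%). Pmepa1, a feedback inhibitor of TGF-beta signalling, was the one lower in both fits. It held 107, 236 and 36.3 CPM in BLM and 27.2, 25.2 and 40.4 CPM in KOBLM, BLM 3 lying within the KOBLM range, with a log2 fold change of -2.03 ± 0.82 (unadjusted p = 0.0258) and -2.47 ± 0.66 without BLM 3 (unadjusted p = 0.0021), and it was not called without KOBLM 2. Tgfb3, a TGF-beta ligand, and Bmpr1a, a BMP receptor, were lower only with BLM 3. Tgfb3 held 3.63, 0.146 and 37.5 CPM in BLM and none in KOBLM, and Bmpr1a held 11.2, 5.12 and 96.2 CPM in BLM and 0, 2.83 and 0.605 CPM in KOBLM. The list's median was 0.32 with all libraries and -0.22 without BLM 3.

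The study singled out the chemokines Ccl2, Ccl7 and Ccl12, ligands that draw monocytes. They were chosen from these libraries together with p300 binding in lungs, so that their values here are no independent evidence of a direction. The study also reported them lower with the knockout after bleomycin by qRT-PCR of lungs, and as proteins in serum and lavage fluid. It measured them by qRT-PCR in isolated ATII cells as well. The 3 chemokine genes lie together at chr11:82035571-82037453, chr11:82045712-82047525 and chr11:82101845-82103400. Ccl2 held 816, 619 and 0.497 CPM in BLM and 116, 22 and 175 CPM in KOBLM. Ccl7 held 147, 161 and 0 CPM in BLM and 6.56, 39.8 and 15.6 CPM in KOBLM. Ccl12 held 67.4, 97.2 and 0 CPM in BLM and 0, 0 and 8.84 CPM in KOBLM. In all 3, BLM 1 and BLM 2 lay above every KOBLM library, and BLM 3 lay at or under the lowest of them. None passed the test. The log2 fold changes were -2.20 ± 1.90 for Ccl2 (unadjusted p = 0.266), -2.32 ± 2.44 for Ccl7 (unadjusted p = 0.36) and -4.21 ± 2.95 for Ccl12 (unadjusted p = 0.174). Without BLM 3 they were -2.78 ± 1.55 (unadjusted p = 0.0927), -2.90 ± 1.97 (unadjusted p = 0.166) and -4.80 ± 2.51 (unadjusted p = 0.0761). Without bleomycin these genes were also uneven: KO 2 held 464 CPM of Ccl2 and 56.7 CPM of Ccl7, against at most 37.9 and 0 CPM in the other KO and Con libraries.

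Of the 15 CC chemokines tested none was higher and 1, Ccl17, was lower (6.67%), and without BLM 3 Ccl17 and Ccl5 were lower (13.3%). The medians were -0.09 and -0.67; with scaling by library size alone the first became 0.03. Ccl17, a dendritic cell and macrophage product that attracts T helper cells, held 484, 1410 and 35.7 CPM in BLM and 45.9, 1.98 and 37.5 CPM in KOBLM. KOBLM differed from BLM by a log2 fold change of -4.50 ± 1.86 (unadjusted p = 0.0298) and -5.06 ± 1.67 without BLM 3 (unadjusted p = 0.00876), and it was not called without KOBLM 2. Ccl5 held 71.6, 118 and 1.21 CPM in BLM and 35.4, 14 and 22.2 CPM in KOBLM (-1.41 ± 1.21, and -1.99 ± 0.80 without BLM 3).
Of 13 CXC and other chemokines 1 was lower (7.69%), and of 14 tested without BLM 3, 2 were lower (14.3%); none was higher in either fit. Cxcl13, the B cell chemokine, held 74.6, 46.1 and 0 CPM in BLM and had no count in KOBLM, at least 113-fold lower (unadjusted p = 0.0171; at least 170-fold and unadjusted p = 0.0036 without BLM 3). Pf4, platelet factor 4, held 1089, 287 and 0 CPM in BLM and 40.7, 250 and 118 CPM in KOBLM and passed only without BLM 3. The list's median lay above 0, at 0.62 and 0.71. No chemokine receptor passed in either fit, of 18 and 20 tested, with medians of 0.09 and -0.57 (0.17 and -0.74 with bounds).

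Among 17 inflammatory cytokines, Il34 was lower with all libraries (5.88%) and Csf1 was lower without BLM 3 (5.26% of 19). Both encode ligands of the macrophage receptor CSF1R. Il34 held 3.63, 0 and 42.7 CPM in BLM, mostly in BLM 3, and none in KOBLM. Csf1 held 289, 109 and 0.071 CPM in BLM and 67.3, 11.6 and 46.8 CPM in KOBLM, a log2 fold change of -1.66 ± 1.48 with all libraries (unadjusted p = 0.28) and of -2.25 ± 0.91 without BLM 3 (unadjusted p = 0.0268). No member passed in either fit among 18 NF-kB subunits and feedback genes, 22 AP-1 and immediate early genes, 35 interferon-stimulated genes and 18 genes of MHC class I presentation. Their medians were 0.31, 0.19, 0.53 and 0.54 with all libraries and -0.14, -0.27, 0.05 and 0.18 without BLM 3.

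In edgeR with TMM scaling the MHC class II genes, whose products display antigen to CD4+ T cells, gave calls only without BLM 3. All 10 tested genes of the list, with the invariant chain Cd74, had a log2 fold change below 0 in both fits, and the median was -1.20 with all libraries and -1.73 without BLM 3. In edgeR with TMM scaling none passed with all libraries, and 5 (50%, against 1.58% of all genes) were lower without BLM 3. With all libraries, DESeq2, limma-voom and the linear model called 0, 5 and 0 lower. Scaled by library size alone, edgeR called 1 lower. H2-Aa held 2543, 6351 and 437 CPM in BLM and 1197, 527 and 1441 CPM in KOBLM, so that BLM 1 and BLM 2 lay above and BLM 3 below the KOBLM libraries. Its log2 fold change was -1.56 ± 0.77 (unadjusted p = 0.0608) and -2.08 ± 0.58 without BLM 3 (unadjusted p = 0.00294). H2-Ab1 held 1436, 3764 and 363 CPM in BLM and 796, 404 and 769 CPM in KOBLM (-1.5 ± 0.75, and -1.99 ± 0.60 without BLM 3). H2-Eb1 held 1594, 4498 and 203 CPM in BLM and 890, 342 and 813 CPM in KOBLM (-1.62 ± 0.85, and -2.16 ± 0.64 without BLM 3). Cd74, which chaperones class II molecules and whose protein was one of the markers of the sort, held 1229, 2494 and 572 CPM in BLM and 1023, 655 and 674 CPM in KOBLM (-0.87 ± 0.61, and -1.25 ± 0.54 without BLM 3). The fifth, H2-Oa, held 1.31, 7.47 and 0 CPM in BLM and none in KOBLM, at least 8.24-fold lower (12.4-fold without BLM 3). In all 5, BLM 2 held the most.

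Class II promoters share an upstream module whose Y box carries the letters ATTGG, read by the factor NF-Y. The promoters of H2-Aa and H2-Eb1 are shown because these genes moved together; each is the 250 bases before the RefSeq start site (GRCm38.p6), 5' to 3' on the gene's strand, with ATTGG or its reverse complement in capitals. H2-Aa lies at chr17:34287824-34288073 on the - strand and H2-Eb1 at chr17:34305617-34305866 on the + strand.
H2-Aa: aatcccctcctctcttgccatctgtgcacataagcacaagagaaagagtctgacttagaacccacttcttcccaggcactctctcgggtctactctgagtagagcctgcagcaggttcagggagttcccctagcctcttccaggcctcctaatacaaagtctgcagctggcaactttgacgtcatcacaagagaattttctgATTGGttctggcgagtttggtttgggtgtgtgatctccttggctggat
H2-Eb1: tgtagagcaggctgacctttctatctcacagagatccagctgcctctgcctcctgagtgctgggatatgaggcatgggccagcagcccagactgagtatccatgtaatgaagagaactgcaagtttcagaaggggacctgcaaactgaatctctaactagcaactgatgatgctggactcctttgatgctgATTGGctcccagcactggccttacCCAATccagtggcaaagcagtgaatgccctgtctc
The match lies at -48 to -44 from the start site in H2-Aa, and at -59 to -55 and, on the other strand, -35 to -31 in H2-Eb1. All 7 class II genes with an entry in the promoter table held ATTGG on either strand in this window. So did 11120 of 32851 promoters (33.8%), the motif being short. A match is a description of the letters and not of binding.

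Genes of cytosolic ribosomal proteins were called in 1 direction, lower in KOBLM. Of 79 tested, 69 had a log2 fold change below 0 and 11 were called lower (13.9%, against 1.78% of all genes); without BLM 3, 73 were below 0 and 9 were lower (11.4%). None was higher in either fit. The median was -0.48 and -0.47. Rps27a, Rps3a1 and Rps14 were among those called in both fits. Rps3a1 held 567, 522 and 772 CPM in BLM and 252, 351 and 355 CPM in KOBLM (-0.97 ± 0.42, and -0.77 ± 0.34 without BLM 3). Rps14 held 1274, 1314 and 1286 CPM in BLM and 726, 476 and 915 CPM in KOBLM (-0.88 ± 0.39, and -0.88 ± 0.33 without BLM 3). In these genes BLM 3 lay with or above the other BLM libraries and no KOBLM library reached a BLM library. Without KOBLM 2 the number called lower was 2, and Rps3a1 and Rps14 were not among them. Without BLM 3 and KOBLM 2 none was higher and 10 were lower, with Rps3a1 but not Rps14 among the 10. Ribosomal protein genes have many processed pseudogenes that share their reads, so that single values are uncertain.

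Genes of the unfolded protein response, which endoplasmic reticulum stress induces, were called in 1 direction, higher in KOBLM. Of 24 tested, 19 had a log2 fold change above 0 with all libraries and 18 without BLM 3, and the median was 0.78 and 0.49. Hspa5 was called higher with all libraries (4.17%), and Hspa5, Hsp90b1, Pdia6 and Hyou1 were higher without BLM 3 (16.7%, against 1.76% of all genes); none was lower in either fit. Hspa5, the chaperone BiP, held 1047, 986 and 661 CPM in BLM and 1855, 2382 and 2543 CPM in KOBLM, without overlap. The log2 fold change was 1.33 ± 0.43 (unadjusted p = 0.00753) and 1.15 ± 0.41 without BLM 3 (unadjusted p = 0.0128). Hsp90b1, the chaperone GRP94, held 345, 335 and 648 CPM in BLM and 940, 548 and 999 CPM in KOBLM (0.89 ± 0.44, and 1.28 ± 0.37 without BLM 3). Pdia6, a protein disulphide isomerase, held 245, 182 and 390 CPM in BLM and 462, 321 and 543 CPM in KOBLM (0.69 ± 0.49, and 1.05 ± 0.44 without BLM 3). In both, BLM 3 was the highest BLM library and lay above KOBLM 2. Hyou1, a chaperone of the same compartment, held 20.2, 49.2 and 0 CPM in BLM and 94.1, 255 and 110 CPM in KOBLM (2.73 ± 1.32, and 2.14 ± 0.70 without BLM 3). The stress-induced factors Ddit3 and Atf4 did not pass. Ddit3 held 28.5, 25.3 and 60.5 CPM in BLM and 21.3, 14.6 and 34.6 CPM in KOBLM, and Atf4 held 277 to 341 CPM in BLM and 227 to 447 CPM in KOBLM.

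Some chaperone genes carry the endoplasmic reticulum stress response element, with the letters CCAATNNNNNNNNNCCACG, which ATF6 recognizes together with NF-Y. The promoters of the 3 called genes that hold it are shown with each match on either strand in capitals, as the 250 bases before the RefSeq start site (GRCm38.p6). Hspa5 lies at chr2:34771840-34772089 on the + strand, Hsp90b1 at chr10:86705445-86705694 on the - strand and Pdia6 at chr12:17266339-17266588 on the + strand.
Hspa5: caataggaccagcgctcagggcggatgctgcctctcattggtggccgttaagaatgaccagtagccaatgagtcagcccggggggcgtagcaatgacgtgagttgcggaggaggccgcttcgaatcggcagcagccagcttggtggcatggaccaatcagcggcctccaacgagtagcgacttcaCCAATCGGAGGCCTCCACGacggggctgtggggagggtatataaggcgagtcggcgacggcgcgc
Hsp90b1: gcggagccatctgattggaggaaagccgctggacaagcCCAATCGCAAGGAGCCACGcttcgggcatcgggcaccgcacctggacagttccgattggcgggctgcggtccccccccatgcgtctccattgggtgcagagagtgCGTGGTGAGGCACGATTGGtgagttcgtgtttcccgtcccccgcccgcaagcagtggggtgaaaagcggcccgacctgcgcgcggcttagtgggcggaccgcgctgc
Pdia6: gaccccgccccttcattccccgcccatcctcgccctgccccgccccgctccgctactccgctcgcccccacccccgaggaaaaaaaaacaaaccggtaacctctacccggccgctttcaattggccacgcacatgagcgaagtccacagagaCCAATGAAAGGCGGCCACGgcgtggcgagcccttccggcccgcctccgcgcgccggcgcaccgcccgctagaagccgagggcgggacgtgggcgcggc
The element lies at -65 to -47 in Hspa5, at -212 to -194 and, on the other strand, -107 to -89 in Hsp90b1, and at -98 to -80 in Pdia6. It was found in 7 of the 22 listed genes with a promoter entry (31.8%), namely Calr, Canx, Creld2, Dnajc3, Hsp90b1, Hspa5 and Pdia6, and in 37 of 32851 promoters (0.113%). All 7 had a log2 fold change above 0 in both fits, with medians of 0.91 and 1.05, and 1 and 3 of them were called higher. The other 17 tested genes of the list had medians of 0.41 and 0.23, with 12 and 11 of them above 0. These 17 include genes whose promoters were not analysed here, Hyou1 among them. No difference between the subsets was tested.

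**Figure D4:**
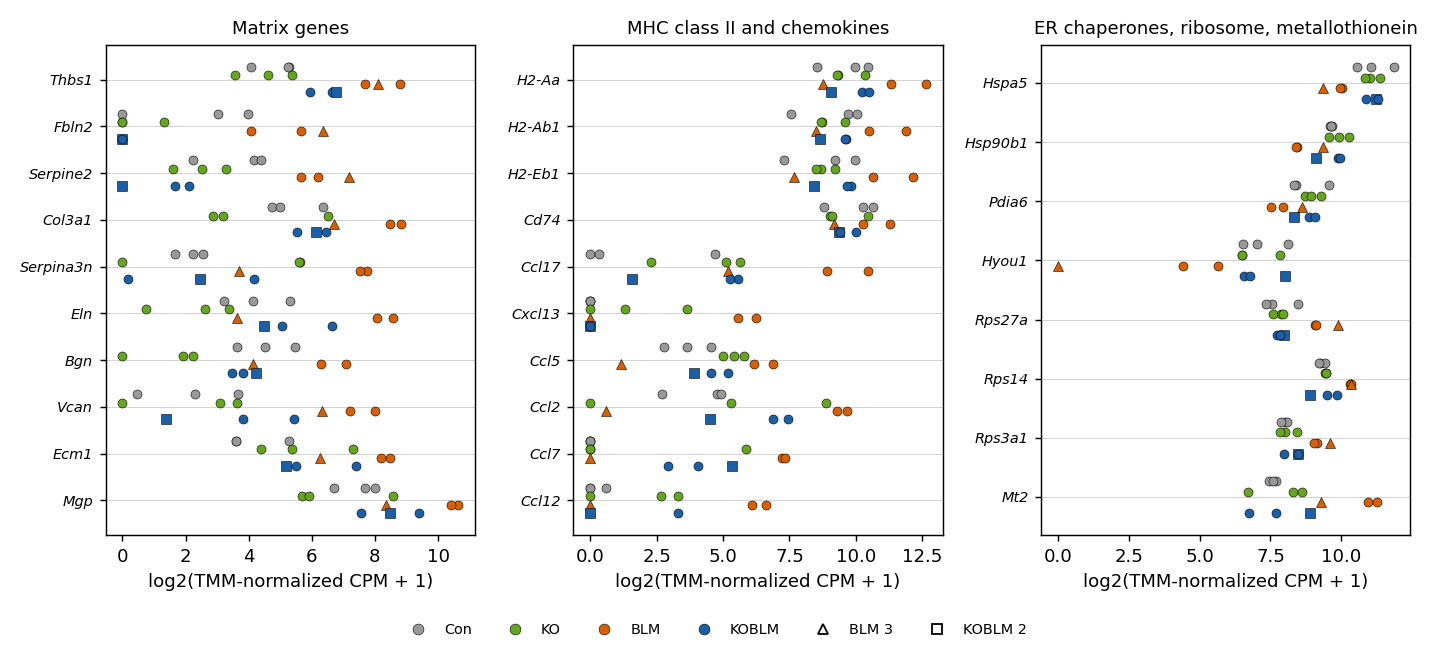
Log2(CPM + 1) of matrix genes (left), of MHC class II genes and chemokines (middle) and of endoplasmic reticulum chaperones, ribosomal proteins and the metallothionein Mt2 (right), with 1 point for each library (colours and shapes as in the plot of the 24 genes). BLM 3 lies far below BLM 1 and BLM 2 in the MHC class II genes and in Ccl2, and beside them in Rps14 and Thbs1.

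Among antioxidant targets of Nrf2, 20 of 26 tested genes had a log2 fold change above 0 with all libraries and 20 of 27 without BLM 3, with medians of 0.68 and 0.38. Gstm1 was higher (3.85%) and Sod1 lower (3.85%) with all libraries, and Gstm1 and Gsr were higher without BLM 3 (7.41%). Gsr, glutathione reductase, held 89, 101 and 0.284 CPM in BLM and 221, 242 and 359 CPM in KOBLM (2.11 ± 1.13, and 1.53 ± 0.54 without BLM 3). Sod1, superoxide dismutase, held 363, 412 and 1336 CPM in BLM and 174, 161 and 321 CPM in KOBLM (-1.70 ± 0.57, and -0.83 ± 0.40 without BLM 3), BLM 3 being far above the rest.
Of 28 p53 target genes, Gdf15 was higher in both fits (3.57% of the list with all libraries), and Perp joined it without BLM 3 (7.14%); the medians were 0.20 and 0.16. Gdf15, a stress-induced cytokine, held 70.8, 169 and 19.4 CPM in BLM and 407, 358 and 416 CPM in KOBLM, without overlap. It changed on the log2 scale by 2.18 ± 0.66 (unadjusted p = 0.00515) and 1.71 ± 0.48 without BLM 3 (unadjusted p = 0.00301). Perp, a desmosomal protein, held 11.3, 15.1 and 27.9 CPM in BLM and 39.8, 124 and 31 CPM in KOBLM.

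None of 15 histone acetyltransferases and none of 15 histone deacetylases tested was changed in either fit. Their medians were 0.03 and 0.19 with all libraries and -0.03 and -0.07 without BLM 3. Crebbp, the gene of CBP, held 205, 147 and 226 CPM in BLM and 213, 253 and 209 CPM in KOBLM, with overlap, and a log2 fold change of 0.22 ± 0.45 (0.35 ± 0.37 without BLM 3). Of the 6 C/EBP genes tested none passed with all libraries, and Cebpa was higher without BLM 3 (16.7%). Cebpb held 407, 263 and 7.59 CPM in BLM and 827, 293 and 663 CPM in KOBLM, a log2 fold change of 1.40 ± 0.86 (unadjusted p = 0.126) and of 0.83 ± 0.44 without BLM 3 (unadjusted p = 0.0781). Cebpa held 68.5, 131 and 0.142 CPM in BLM and 98.7, 370 and 188 CPM in KOBLM, a log2 fold change of 1.71 ± 1.16 (unadjusted p = 0.161) and of 1.13 ± 0.53 without BLM 3, where it lay at the threshold (unadjusted p = 0.05). The deubiquitinase Uchl3, which the study also followed, held 29.6, 15.8 and 0 CPM in BLM and 5.02, 50.4 and 9.32 CPM in KOBLM, and its log2 fold change was 0.51 ± 1.55 with all libraries and -0.08 ± 1.05 without BLM 3. None of 33 deubiquitinases was changed in either fit.

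In edgeR the calls among cell cycle, DNA repair and pluripotency genes were lost without BLM 3, with the exception of Mybl2. Of 43 cell cycle genes tested, 7 were lower with all libraries (16.3%) and none without BLM 3, where DESeq2, limma-voom and the linear model called 1, 2 and 3 lower. The median moved from -1.35 to -0.57. Top2a, the topoisomerase of dividing cells, held 67.2, 104 and 1425 CPM in BLM and 107, 0 and 29.3 CPM in KOBLM, a log2 fold change of -3.57 ± 1.56 and of -0.92 ± 1.26 without BLM 3. The fold moved less in Cdk1, from -3.07 ± 1.43 to -2.49 ± 1.37, and in Tk1, from -2.70 ± 1.08 to -2.10 ± 1.01, although neither was called without BLM 3. The median of 35 DNA repair genes moved from -1.44 to -0.03, and Parp2, at 206 CPM in BLM 3 and 35 and 33.5 CPM in the other BLM libraries, was the one called, only with BLM 3 (2.86%); without it DESeq2, limma-voom and the linear model called 0, 4 and 2 lower. Of 14 pluripotency and germline genes tested 7 were lower (50%), and of 16 without BLM 3, 1 was lower (6.25%), with medians of -6.36 and -0.89. Here the other tools called 1, 4 and 4 lower without BLM 3. Pou5f1, the gene of OCT4, held 4.5, 0.293 and 155 CPM in BLM and 0, 0 and 0.847 CPM in KOBLM.

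Epithelial genes gave few calls. Among 15 ATII markers tested, Lyz1, a lysozyme, was higher in both fits (6.67% of the list in each), and it held 67.2, 141 and 0.426 CPM in BLM and 126, 670 and 492 CPM in KOBLM, with overlap. Lyz1 has a close copy, Lyz2, which macrophages express, so that its value is uncertain; Lyz2 was also higher in both fits and held 365, 1023 and 7.1 CPM in BLM and 987, 3031 and 3619 CPM in KOBLM. Neither was called without KOBLM 2. No ATI marker passed in either fit. In the list of the Krt8 transitional state, which arises between ATII and ATI cells after injury, Krt19 was higher and Cldn4 lower in both fits (6.25% each with all libraries), and S100a6 and Cst3 were lower as well without BLM 3 (18.8%). Krt19, a keratin, held 11.6, 19.5 and 0 CPM in BLM and 161, 307 and 47.4 CPM in KOBLM, a log2 fold change of 4.05 ± 1.30 (3.46 ± 0.76 without BLM 3). Krt8 itself held 10.2, 15.1 and 76.2 CPM in BLM and 0, 0 and 6.29 CPM in KOBLM and did not pass (-4.02 ± 2.89, and -2.58 ± 3.24 without BLM 3). Cldn4, a tight junction claudin, held 8.27, 19.3 and 13.9 CPM in BLM and no count in KOBLM, at least 39.0-fold lower (38.9-fold without BLM 3), and was not called without KOBLM 2. Scgb1a1, the club cell secretory protein, was the only one of 4 tested airway markers called (25.0%, and 20% of 5 without BLM 3). It held 241, 229 and 172 CPM in BLM and 30.6, 110 and 23.1 CPM in KOBLM, a log2 fold change of -1.98 ± 0.80 (-2.11 ± 0.76 without BLM 3). Of 15 epithelial junction genes, Jup was higher (6.67%) and Cdh1 and Cldn4 lower (13.3%), and of 17 without BLM 3 only Cldn4 was lower (5.88%). Cdh1, E-cadherin, held 137, 295 and 406 CPM in BLM and 69.4, 152 and 71.5 CPM in KOBLM (-1.53 ± 0.67, and -1.15 ± 0.61 without BLM 3). Epcam, the other marker of the sort, held 9.73, 39.7 and 260 CPM in BLM and 11.3, 149 and 3.27 CPM in KOBLM, and did not pass (-0.94 ± 1.41, and 1.14 ± 1.40 without BLM 3).

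Among markers of other cells, macrophage and lymphocyte genes were called higher at larger shares than all tested genes (1.39%, and 1.76% without BLM 3). These shares rest on few genes. Of 26 macrophage markers Itgax and Lyz2 were higher with all libraries (7.69%), and Lpl and Clec4n as well without BLM 3 (15.4%), with medians of 0.75 and 0.29. Of the 26, 10 had a log2 fold change below 0 with all libraries and 12 without BLM 3. limma-voom called 5 higher and 5 lower, and 5 higher and 7 lower without BLM 3. Without BLM 3 and KOBLM 2, 13 lay above and 13 below 0, and 4 were called higher and 1 lower. Lpl, lipoprotein lipase, held 551, 1088 and 0.213 CPM in BLM and 1667, 3598 and 2959 CPM in KOBLM (2.33 ± 1.28, and 1.74 ± 0.42 without BLM 3). Of 17 lymphocyte markers 3 were higher (17.6%), and 2 without BLM 3 (11.8%), and the medians of 4.04 and 3.45 became 2.71 and 2.44 with bounds for genes at the counting floor. Cd2, an adhesion receptor of T and NK cells, held 21.5, 49.9 and 0 CPM in BLM and 322, 851 and 214 CPM in KOBLM. KOBLM differed from BLM by a log2 fold change of 4.28 ± 1.33 (unadjusted p = 0.00606) and 3.69 ± 0.66 without BLM 3 (unadjusted p = 5.96e-05). Without bleomycin Cd2 held 740 to 1060 CPM in Con and 252 to 618 CPM in KO. Of the 18 lymphocyte markers in the files, 12, 5 and 18 had no count in BLM 1 to 3. In KOBLM 1 to 3 the numbers were 4, 8 and 2, although KOBLM 2 held the most Cd2. Gzma, granzyme A, had no count in BLM and 7.81, 0.0943 and 22.8 CPM in KOBLM, at least 28.2-fold higher (23.4-fold without BLM 3). Cd3e, a subunit of the T cell receptor complex, held 0, 1.61 and 0 CPM in BLM and 24.1, 0 and 2.66 CPM in KOBLM, and Ms4a1, the B cell protein CD20, held at most 0.146 CPM in BLM and 5.33 CPM in KOBLM; neither passed in either fit. No neutrophil marker (11 tested) or endothelial marker (14 tested) passed in either fit.

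Energy and lipid metabolism gave few calls. Of 74 subunits of oxidative phosphorylation 2 were lower (2.70%), and 1 without BLM 3 (1.35%), with medians of -0.04 and -0.30. Sdhb, the iron-sulphur subunit of succinate dehydrogenase, was the one lower in both fits, at 188, 193 and 342 CPM in BLM and 75.5, 67.1 and 132 CPM in KOBLM (-1.41 ± 0.55, and -1.06 ± 0.45 without BLM 3), and it was not called without KOBLM 2. None of 23 glycolysis genes passed, with medians of -0.59 and -0.50. Of 33 genes of sterol and fatty acid synthesis none passed with all libraries, and 2, Gpam and Stard7, were lower without BLM 3 (6.06%).

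**Figure D5:**
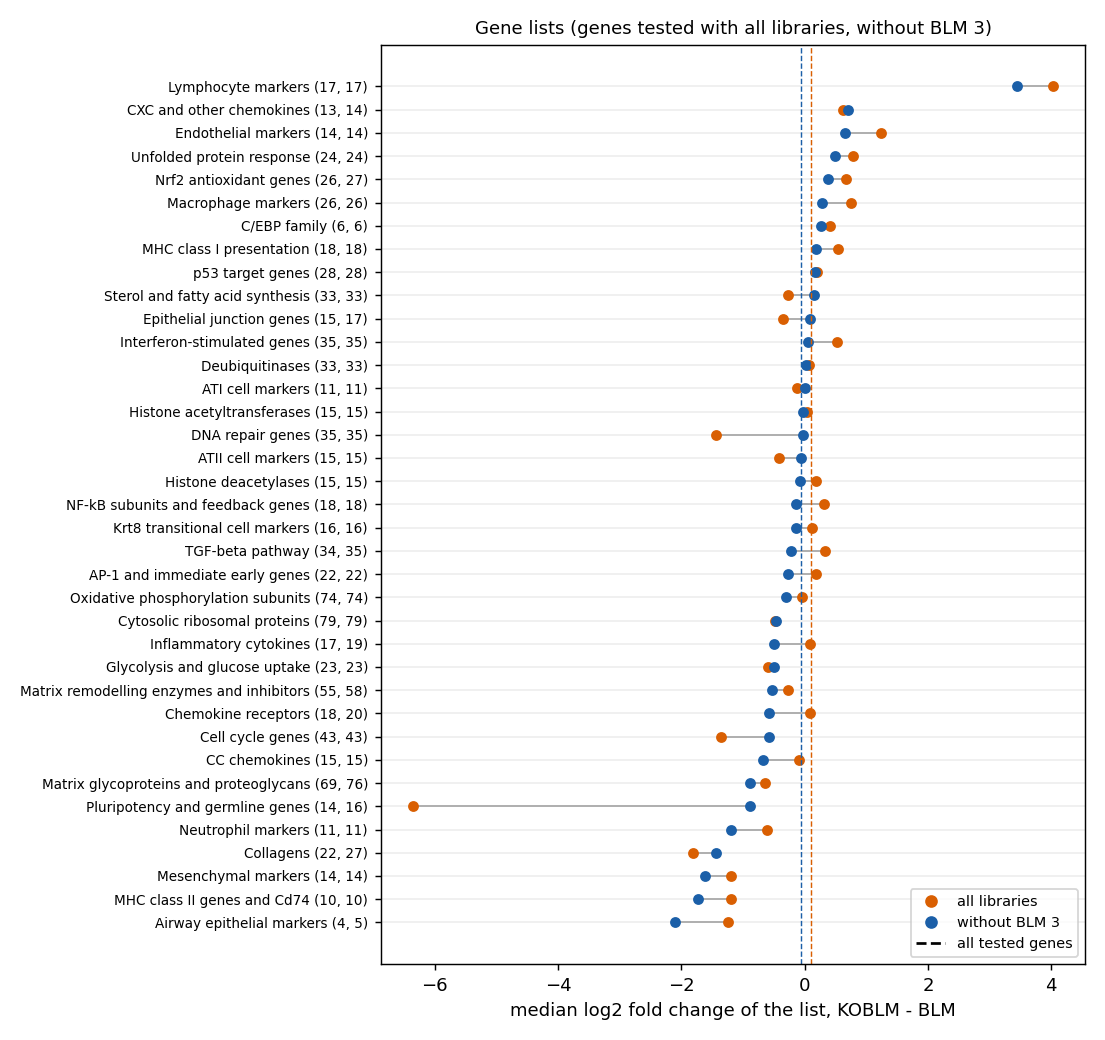
Median log2 fold change of KOBLM over BLM in each gene list with all libraries (orange) and without BLM 3 (blue), with the number of genes tested in each fit in brackets; dashed lines mark the medians of all tested genes, 0.10 and -0.06. The median of the pluripotency and germline genes moves from -6.36 to -0.89, and that of the MHC class II genes from -1.20 to -1.73.

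The same genotypes were then compared without bleomycin. The KO and Con levels come from other libraries than those of KOBLM and BLM, but all 12 share 1 estimate of the spread in the model. Between KO and Con, 188 of 13054 genes (1.44%) were changed, 70 higher (0.536%) and 118 lower (0.904%). No gene had an adjusted p under 0.05 in edgeR or in limma-voom, where 188 and 666 genes passed the unadjusted thresholds, while DESeq2 gave 80 genes and the linear model 2 genes. Of the 129 genes higher in KOBLM than in BLM in both fits, 44 (34.1%) were also higher in KO than in Con, against 44.9% of all tested genes, and 1 was called so. Of the 89 lower genes, 47 (52.8%) were also lower, against 54.5% of all, and 2 were called so. Hebp1 held 138 to 193 CPM in Con and 153 to 263 CPM in KO, and Cybb 1440 to 1814 and 1617 to 2221 CPM, so that the groups overlapped in both and KOBLM lay in or near these ranges. Ep300 held 134, 145 and 47.5 CPM in Con and 152, 184 and 92.6 CPM in KO.

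The difference between the genotype effects with and without bleomycin was tested in the same model. It was called in 368 of 13054 genes (2.82%), 197 higher (1.51%) and 171 lower (1.31%), and without BLM 3 in 652 of 14084 (4.63%), 308 higher (2.19%) and 344 lower (2.44%). No gene passed an adjusted p of 0.05 in edgeR, the smallest adjusted p being 0.9999 with all libraries and 0.333 without BLM 3; the unadjusted threshold was passed by the 368 and 652 genes above, and DESeq2, limma-voom and the linear model gave adjusted values under 0.05 to 85, 1 and 4 genes with all libraries. Of the 129 higher and the 89 lower genes of both fits, 65 and 36 were called in the same direction; these fits share their BLM and KOBLM libraries, so that the counts are not independent. Hebp1 was among them, with a difference of 2.15 on the log2 scale (unadjusted p = 0.0084) and of 2.27 without BLM 3 (unadjusted p = 0.0011). So was Mt2, with -3.17 (unadjusted p = 0.0042) and -3.57 without BLM 3 (unadjusted p = 0.00039). For Thbs1 the difference was -1.51 (unadjusted p = 0.12) and -1.59 without BLM 3 (unadjusted p = 0.071), and it passed in neither fit. For Ccl2 it was -5.25 with all libraries (unadjusted p = 0.075), which did not pass, and -5.83 without BLM 3 (unadjusted p = 0.016), which did. Ccl7 passed in both fits (unadjusted p = 0.014, and 0.0027 without BLM 3) and Ccl12 without BLM 3 (unadjusted p = 0.053 with all libraries and 0.017 without it). No size is given for Ccl7 and Ccl12, because the Con libraries held no count of Ccl7 and at most 0.508 CPM of Ccl12. The KO levels of Ccl2 and Ccl7 in these differences came mostly from KO 2, with 464 and 56.7 CPM. Without KO 2, a setting chosen after the data were seen, the difference of Ccl2 was -2.10 ± 2.50 (unadjusted p = 0.414), and -2.68 ± 1.80 with BLM 3 left out as well (unadjusted p = 0.16), and did not pass. For Ccl7 none of the Con and KO libraries left held a count, so that no difference could be fitted. Ccl12 was at unadjusted p = 0.0644 and 0.0233 in these fits.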

How the data were processed

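RNA was prepared by the study with the QuantSeq 3' kit and sequenced, and the authors deposited 1 table of raw counts per gene symbol for each of the 12 libraries; per the labels' processing notes Bowtie2, edgeR and mm10 were used, without versions. The strand setting of the counting and the annotation are not given in the sources used here. Deposited normalized columns were not used. The counts of 35 repeated symbols (79 entries) were summed, giving 23238 symbols, of which 17480 had a count. Library totals are 7005005 to 11153154 counts, and a gene without a count was set to a floor of 3 counts per library for fold bounds; floors cover counting error only. Groups were taken from the labels, with 1 mouse per library.

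Counts were filtered with filterByExpr, scaled by TMM (factors 0.835 to 1.26) and fitted in a model of 4 groups by edgeR's quasi-likelihood test (edgeR 4.0.16, limma 3.58.1, R 4.3.3), with a shared dispersion of 2.08 with all libraries and 1.69 without BLM 3. A changed gene differed by over 1.5-fold with an unadjusted p under 0.05; Benjamini-Hochberg values were computed over all tested genes. CPM are TMM-scaled, and levels of different genes are not corrected for length. Gene lists were described by counts and medians, without a test of a list. Gene positions and the exon came from GENCODE on GRCm38, promoters from RefSeq on GRCm38.p6. The alternatives were DESeq2 1.42.0, limma-voom with sample weights, a linear model of log2(CPM + 1) for each gene, other scalings, no filter, a replicate block, a model of BLM and KOBLM only, and leaving out each library. The scripts were tested on simulated data with 8-fold changes in 200 genes. At a dispersion of 0.05, edgeR called 198 of them in the right direction. At a dispersion of 2, near that of these data, it called 38, and 0 had an adjusted p under 0.05.

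Genes were named by this rule: Ep300 and the genes the study names, the 12 genes per direction with the smallest p in both fits that had at least 10 CPM on average and groups that did not overlap, predicted models left out, list members changed in at least 1 fit, and defining members of a list. Ptprc, Mt1 and Arg1 were named after their values were seen. The comparison and the lists were chosen with earlier results of these data known. Alternatives without BLM 3 were added after seeing the data. Some listed genes are not reported here by name.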

Additional observations from a re-analysis of the deposited data

Results flagged for a closer look

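Among the genes named here, 4 separated the genotypes in opposite directions with and without bleomycin. In them every KOBLM library lay on one side of every BLM library, and every KO library on the other side of every Con library. The difference of the genotype effects had an unadjusted p under 0.05 in edgeR in each of the 4. That test and the separation use the same libraries, so that these p-values are no independent support. None of the 4 had an adjusted p under 0.05 (the smallest adjusted p = 0.9999 over all tested genes). Over all 13054 tested genes, KOBLM and BLM did not overlap in 10.7%. Opposite separation was not counted over all genes, so that the 4 cannot be set against a share of them. Genes named by rank were chosen for KOBLM and BLM groups that did not overlap.

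Hint1 held 612, 704 and 931 CPM in BLM and 199, 314 and 432 CPM in KOBLM, but 376, 371 and 327 CPM in Con and 450, 446 and 413 CPM in KO, and the difference of the log2 fold changes was -1.545, and -1.35 without BLM 3. Cd2 differed by 5.386, Krt19 by 4.895 and Plod3 by 1.749 on the log2 scale, and by 4.80, 4.30 and 1.84 without BLM 3. In these 3 genes KOBLM was above BLM and KO was below Con.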

How the results depend on the processing

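The count of genes changed between KOBLM and BLM depended on the test. Against 413 it was 645 without a filter on low counts, 149 with only BLM and KOBLM in the model, 755 with DESeq2, 1257 with limma-voom and 747 with the linear model, and 0 by adjusted p. The 181 higher genes became 61, 330, 494, 396 and 0 with the 2-group model, DESeq2, limma-voom, the linear model and adjusted p, and the 232 lower genes 88, 425, 763, 351 and 0, and 379 without a filter. Leaving out 1 library gave 236 to 471 genes, 118 to 248 higher and 118 to 243 lower; the lowest count was without KOBLM 2. Without BLM 3, limma-voom called 1407 and the linear model 874, adjusted p 0, and leaving out another library 204 to 536. Where that left BLM with 1 library, it was assumed to vary like the other groups. For KO against Con, DESeq2 called 374, limma-voom 666, the linear model 328 and adjusted p 0, and leaving out a library gave 88 to 446. For the difference of the genotype effects the counts were 706 without a filter, 625, 987, 562 and 0, and 332 to 672.

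Replicate numbers did not pair the libraries, the correlations of same-numbered deviations being 0.046, 0.021 and -0.034. With a replicate block in the model, 262 genes were changed (147 higher, 115 lower), 410 without BLM 3, 100 between KO and Con and 242 for the difference.

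Of the 24 genes named by rank, 327 of 336 alternative values kept their direction and call, and 9 lost the call. These genes were ranked by their p with and without BLM 3 on the same counts. Keeping the call was therefore favoured by the choice, and is no independent support. Over all 116 named genes, 7 of 1612 values reversed. Ep300 was -0.070 without KOBLM 1 (range 0.73 to -0.070 over left-out libraries), Ccl2 was 0.023 with the block, Csf1 was 0.090 and Pf4 was 0.66 with the linear model, and Uchl3 was -1.30 with limma-voom, -0.08 without BLM 3 and -1.07 without KOBLM 2 (range -1.07 to 1.45 over left-out libraries). Of 546 alternative list medians, 18 moved by more than the spread between libraries. The causes were not tested.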

Other observations

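Libraries other than BLM 3 and KOBLM 2 also held genes at levels unlike their group. Arg1, arginase 1 of alternatively activated macrophages, held 3798, 2822 and 62.5 CPM in BLM and 55.7, 0 and 817 CPM in KOBLM, and 1350 CPM in KO 2 against at most 5.97 CPM in the other KO and Con libraries. The matrix glycoproteins and proteoglycans summed to 13557 CPM in KO 2, against 1675 and 1920 CPM in KO 1 and KO 3 and 3344 to 8362 CPM in the BLM libraries.

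The limits of these data are 3 libraries per group, 2 of the 6 compared standing apart, and no adjusted call in edgeR. The dispersion leaves most differences of a few fold within the spread. In simulated data with a dispersion of 2, most 8-fold changes were not called either. The Ep300 count lies outside the deleted exon. The share of leukocyte RNA differed between libraries, and its part in the results was not tested.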
